A study of Mus musculus with 21 samples.

Results

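Set 7 and set 8 are the library sets of the Neuro2a cells that received the sadCas9-VP64 activator plasmid with no guide RNA, and all genes were compared between them. The first number in the labelled library name is 7 for replicates 1 to 3 and 8 for replicates 4 to 6, which gave 3 libraries per set, 6 of the 12 Neuro2a libraries and 6 of the 21 samples in the series. Neuro2a is a mouse neuroblastoma line. sadCas9-VP64 is a catalytically dead Staphylococcus aureus Cas9 joined to the VP64 transcriptional activator, and without a guide RNA it has no programmed target. The study as a whole concerns activation of Scn2a, the gene of the sodium channel Nav1.2, in Neuro2a cells and in sorted neurons of mouse cortex, by sequencing of polyA RNA.

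The cells of all 6 libraries were grown in DMEM with serum and antibiotics, and the libraries carry the same label, the activator without a guide. The labels give 750 ng of each plasmid where both were used, name no separate amount for the activator alone, and do not say what sets 7 and 8 stand for. Set, transfection day, plasmid preparation, cell passage and every other property that may differ between the sets therefore cannot be told apart. No untransfected culture was analysed here, so a value can be set beside the other set and not beside unexposed cells. The labels do not say whether the 3 libraries of a set came from separate cultures, so each p-value speaks only of the scatter among these libraries, possibly a technical one. The other 6 Neuro2a libraries (3 in each set) received the activator together with a guide RNA plasmid and are called guide-treated, and they served for a second look at the same set contrast in other libraries.

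As background, cells detect foreign nucleic acid, such as plasmid DNA in the cytosol, through sensors that include cGAS with STING for DNA and RIG-I and MDA5 for RNA. These sensors switch on interferon regulatory factors, type I interferon acts through a complex that holds STAT2 and IRF9, and that complex binds the interferon-stimulated response element (ISRE) in the promoters of antiviral genes. Cells short of oxygen, or with stabilised HIF-1, raise glycolytic enzymes, glucose and lactate transporters and vasoactive peptides through the hypoxia response element (HRE).

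The sadCas9-VP64 transcript itself differed between the sets. It was at 2505, 2646 and 2498 CPM (counts per 1e+06 reads) in set 7 and at 359.8, 369.8 and 318 CPM in set 8. The means were 2550 ± 83.7 and 349 ± 27.5 CPM (SD, n = 3 each), a ratio of 7.30, and the lowest library of set 7 lay far above the highest of set 8. The exact two-sided permutation p was 0.1, the smallest that 3 against 3 can give. In the guide-treated libraries the ratio was 3.30, with 1977 ± 256 CPM in set 7 and 599.8 ± 34.3 CPM in set 8 (exact permutation p = 0.1). The mCherry-puromycin transgene was listed at 0 in all 6 activator-only libraries. In bulk RNA a smaller share of transfected cells and less transcript per cell cannot be told apart, and the same holds for every host gene below. Whether the host differences follow the transgene level was not tested, because the level moves with the set.

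The 6 libraries held an estimated 15.8 to 20.97 M reads (M for 1e+06), so that 1 read was worth 0.0477 to 0.0632 CPM. Across features, Pearson's r of the log2 levels was 0.992 to 0.994 between libraries of a set and 0.979 to 0.983 between sets, and no library pair held identical values for more than 0.0837% of the genes. The first principal component held 61.0% of the variance and separated the sets, and along the second (11.1%) replicate 3 of set 7 stood apart from replicates 1 and 2. The summed share of ribosomal protein mRNAs was 5.79 to 6.20% in set 7 and 7.24 to 7.49% in set 8, and that of mitochondrial transcripts was 0.816 to 1.01% and 0.911 to 1.03%. The set difference ran slightly with base composition (Spearman's rho of -0.17 with transcript GC over 13594 genes, median 0.09 and -0.06 in the lowest and highest of 4 equal GC groups), and the part of GC in the results was not tested. Markers defining other cell types were low, apart from those of fibroblasts. Of the rest, 1 of 4 microglial, 3 of 8 astrocyte and oligodendrocyte and 3 of 7 endothelial and epithelial markers passed the filter on low values. Their summed levels were 1.10 to 1.32 against 0.334 to 1.55 CPM, 4.12 to 6.04 against 5.49 to 6.26 CPM, and 6.49 to 8.71 against 8.35 to 11.1 CPM in set 7 and set 8. The endothelial marker Pecam1 (5.44 ± 0.872 against 7.57 ± 1.29 CPM) was lower in set 7 (log2 difference of -0.44, limma adjusted p = 0.0316). It lost that call in 5 of the other settings and fits. The fibroblast markers (4 of 5 passed the filter) summed to 137 to 159 against 124 to 139 CPM, mostly Pdgfrb (132 ± 12.8 against 113 ± 6.48 CPM). Among them Pdgfrb and the collagen gene Col1a2 (4.11 ± 1.05 against 2.13 ± 0.650 CPM; log2 difference of 0.82, limma adjusted p = 0.00574) were higher in set 7, and Col1a1 was below 1 CPM in every library. The other 2 tested did not pass. The log2 differences of the list ran from -0.65 to 0.82 with a median of 0.002, and 1 member was lower in set 7 without overlap. The part of these markers in the results was not tested. Of the 18 neuroblastoma genes 16 passed the filter, and among them the defining factor Hand2 averaged 338 CPM (set 7) and 373 CPM (set 8).

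Differences between the sets reached across the transcriptome and were mostly small. Of 14344 genes tested with limma on log2(CPM + 0.5), a scale that understates the change of low genes, 6632 passed at an adjusted p (Benjamini-Hochberg) below 0.05, which is 46.2%. Higher in set 7 were 3744 genes (26.1%) and lower in set 7 were 2888 (20.1%). The excess of higher genes depended on the scaling. With median-of-ratios scaling 3307 were higher and 3277 lower, and with quantile scaling 3234 and 3143. In the main fit the median absolute log2 difference of the genes that passed was 0.37. Of them 364 differed by at least 2-fold, 169 higher and 195 lower in set 7. All 3 libraries of set 7 lay above all 3 of set 8 for 4358 genes (30.4%) and below them for 3492 (24.3%). The median difference over all genes tested was 0.03. With calls this common, a list in which 26.1% of members are higher and 20.1% are lower looks like the background, and lists are read against those shares. Values in parentheses after a gene are its log2 difference, set 7 minus set 8, on that scale, with the SE after ± and the limma adjusted p where given.

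**Figure D1:**
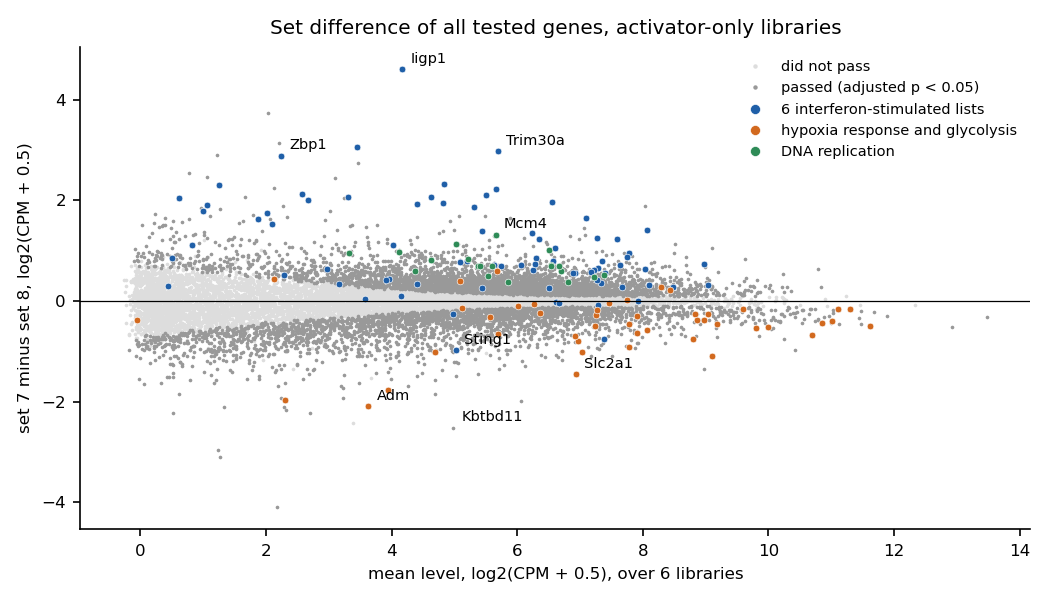
Each dot is 1 of the 14344 genes tested in the activator-only libraries, with the mean level over 6 libraries on the x axis (log2(CPM + 0.5)) and set 7 minus set 8 on the y axis (same scale). Blue marks the 6 interferon-stimulated lists, orange the hypoxia response and glycolysis lists and green DNA replication, and Iigp1 (4.61) lies at the top while Kbtbd11 (-2.52) and Adm (-2.08) lie near the bottom.

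Interferon-stimulated genes were mostly higher in set 7. A total of 6 lists of them, for nucleic acid sensors, 2'-5'-oligoadenylate synthetases, guanylate-binding and immunity-related GTPases, Ifit and Ifi genes, antiviral effectors, and ISG15 conjugation, held 78 tested genes, each counted once. Of these 68 were higher in set 7, 3 were lower and 7 did not pass, with a median log2 difference of 0.78 against 0.03 over all genes. Over 6 fits that each left out 1 library, 66 to 68 of the 78 passed as higher. Replicate 3 of set 7 was the highest library for 51 of the 68 (75.0%), compared with 1942 of the 3744 genes higher in set 7 as a whole (51.9%).

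Iigp1, an immunity-related GTPase that attacks the vacuoles of intracellular parasites, had the largest difference of any tested gene with a mean of at least 5 CPM. It was at 33.7, 23.1 and 45.6 CPM in set 7 and at 0.954, 0.836 and 0.822 CPM in set 8. Every set 7 library lay far above every set 8 library, although the set 7 libraries also spread among themselves, with replicate 3 the highest. The means were 34.2 ± 11.2 against 0.871 ± 0.0725 CPM, a ratio of 39.3 and a log2 difference of 4.61 ± 0.19 (SE; adjusted p = 3.69e-11). All 18 tested members of the GTPase list (of 20 in the table) were higher in set 7, with a median of 1.78 and a smallest difference of 0.56. Tgtp2, a T-cell-specific guanine nucleotide triphosphate-binding protein of the same family, was at 17.7, 12.9 and 26.3 CPM in set 7 and 2.30, 1.49 and 1.57 CPM in set 8 (3.05 ± 0.21, adjusted p = 1.03e-08). Mx1, a dynamin-like GTPase that blocks influenza virus, was at 69.4, 68.9 and 82.2 CPM against 16.7, 16.9 and 16.1 CPM (2.11 ± 0.07, adjusted p = 6.39e-12). For Gbp3, a guanylate-binding protein, the levels were 149.6, 133 and 167 CPM against 39.1, 38.2 and 35.8 CPM (1.97 ± 0.07, adjusted p = 6.39e-12). None of these genes overlapped between the sets, which the rule that named Iigp1, Tgtp2 and Mx1 required, while Gbp3 was taken by its p. Gbp9 (2.13), Gbp10 (2.07) and Igtp (1.24) moved the same way. The guanylate-binding proteins, Tgtp1 and Tgtp2, Ifit3 and Ifit3b, Oas1a and Oas1g, and H2-K1 and H2-D1 are close copies of one another, and how reads with several alignments were assigned is not given in the sources used here, so the split of reads within each family is uncertain.

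The 2'-5'-oligoadenylate synthetases are sensors of double-stranded RNA that make a second messenger, which leads to cleavage of RNA in infected cells. All 8 tested members of their list, which also covers RNase L, were higher in set 7 (median 1.03). Oas2 was at 218, 189.7 and 215 CPM in set 7 and 69.8, 66.6 and 59.9 CPM in set 8, with no overlap (1.66 ± 0.06, adjusted p = 9.56e-12). Oas3 stood at 60.1, 54.3 and 72.1 CPM and 15.4, 18.6 and 16.1 CPM (1.86 ± 0.10, adjusted p = 3.71e-10), and Oas1g at 43.9, 46.9 and 50.5 CPM and 11.01, 7.68 and 8.57 CPM (2.32 ± 0.11, adjusted p = 1.63e-10). Oas1a differed by 1.26 ± 0.05 (SE; adjusted p = 3.69e-11), from 218 ± 5.34 against 91.1 ± 7.47 CPM. The members furthest down the list, Oas1b (0.26), Oasl2 (0.32) and Oas1c (0.33), passed in the main fit. Over the 6 fits that each left out 1 library, and over the 11 other settings, 7 to 8 members passed as higher.

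Antiviral effectors were mostly higher as well, 13 of 16 tested (median 0.76), with 1 lower and 2 that did not pass. Trim30a, a tripartite-motif ubiquitin ligase induced by interferon, was at 89.1, 79.8 and 104 CPM in set 7 and 12.9, 10.2 and 10.4 CPM in set 8 (2.97 ± 0.10, adjusted p = 3.79e-12). Its sets lay far apart, and the rule that named it required that they not overlap. Phf11d, a PHD-finger gene, was at 86.6, 74.6 and 88.5 CPM and 18.3, 17.6 and 16.3 CPM (2.22 ± 0.07, adjusted p = 3.79e-12). Rsad2, which encodes viperin and makes a chain-terminating nucleotide, was at 284, 280.3 and 306 CPM and 159, 144 and 148 CPM, a difference of 0.95 ± 0.05 (SE; adjusted p = 2.21e-10) that was small beside Trim30a although the levels were higher. Bst2, the tetherin that holds budding virus at the cell surface, differed by 0.73 ± 0.04 (SE; adjusted p = 4.9e-10). Helz2 (-0.08) and Isg20 (0.04) did not pass, and Trim21, an intracellular antibody receptor, was lower in set 7 (-0.26).

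Ifit and Ifi genes, which include RNA-binding blockers of viral translation, gave 9 higher and 1 lower of 13 tested (median 0.74). Ifit3 was at 39.4, 32.4 and 46.6 CPM in set 7 and 8.70, 8.19 and 10.04 CPM in set 8 (2.07 ± 0.12, adjusted p = 1.05e-09). Ifit1 differed less, at 273, 260.3 and 295 CPM and 153, 147 and 151 CPM (0.87 ± 0.05, adjusted p = 5.05e-10), and from a higher level. Ifi44 was at 403, 370.1 and 394 CPM and 167, 145 and 128 CPM (1.41 ± 0.07, adjusted p = 2.12e-10). The exception was Ifi27, a small mitochondrial protein gene, which was lower in set 7 at 122, 129 and 121 CPM against 203, 214 and 213 CPM (-0.76 ± 0.04, adjusted p = 9.98e-10). Ifi30 (-0.03), Ifitm2 (-0.04) and Ifit1bl1 (0.30) did not pass.

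All 11 genes of ISG15 conjugation and the interferon-induced PARP enzymes were higher in set 7 (median 0.63). Isg15, the ubiquitin-like protein, was at 256, 229 and 255 CPM against 161, 145 and 145 CPM (0.71 ± 0.05, adjusted p = 1.91e-08), and Usp18, the protease that removes it and also dampens the interferon receptor, at 269.9, 256 and 282 CPM against 121, 113 and 111 CPM (1.22 ± 0.05, adjusted p = 1.49e-11). Parp12 (0.86) and Parp9 (0.66) were also higher. The sets did not overlap for any of the 11.

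Most sensors upstream of interferon were higher in set 7, with an exception. Of 12 tested, 9 were higher in set 7 and 1 was lower (median 0.40). Zbp1, a sensor of left-handed nucleic acid that can trigger cell death, was at 7.30, 7.38 and 8.84 CPM in set 7 and 0.715, 0.597 and 0.569 CPM in set 8 (2.88 ± 0.19, adjusted p = 4.41e-09), so it stayed under 1 CPM in set 8 only. Rigi, which encodes RIG-I, was at 179, 175 and 189.5 CPM and 121, 123 and 109.7 CPM (0.62 ± 0.05, adjusted p = 5.37e-08), and Tlr3, an endosomal receptor for double-stranded RNA, at 56.1, 57.4 and 70.4 CPM and 36.5, 38.1 and 35.9 CPM (0.72 ± 0.08, adjusted p = 1e-06). Cgas, the cytosolic DNA sensor, was higher in set 7 by 0.44. Its partner Sting1 went the other way, at 20.3, 22.8 and 21.1 CPM in set 7 and 46.4, 40.9 and 40.9 CPM in set 8, again without overlap (-0.98 ± 0.08, adjusted p = 3.3e-08). Aim2 (0.10) and Trim25 (-0.01) did not pass.

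The transducers of the interferon signal did not move as 1 group. Among 18 tested, 5 were higher and 5 lower in set 7, with a median of -0.10, and 8 were lower with quantile or median-of-ratios scaling. Transcription factors led the members that were higher. Irf7, the factor that amplifies type I interferon output, was at 202, 184 and 201 CPM in set 7 and 73.2, 71.7 and 70.3 CPM in set 8 (1.44 ± 0.05, adjusted p = 3.79e-12). Stat2 was at 191, 169 and 218 CPM and 80.6, 74.00 and 75.9 CPM (1.31 ± 0.07, adjusted p = 4.49e-10), while Irf9, its partner in the complex, did not pass (0.10). Jak1 (0.37) and Irf1 (0.22) were also higher. Lower in set 7 were Irf5 (-0.92), Irf2, a repressor of interferon genes (-0.51 ± 0.05, adjusted p = 1.09e-06), the interferon gamma receptor chains Ifngr1 (-0.29) and Ifngr2 (-0.37), and Jak2 (-0.28). The type I receptor chains Ifnar1 (-0.12) and Ifnar2 (0.13) did not pass. Of the interferon ligands listed, only Ifnb1 was in the table, and it was listed at 0 in all 6 libraries. At 3 reads per library this allows up to 0.143 to 0.190 CPM, by counting error alone.

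MHC class I genes, which present peptides to T cells and are induced by interferon through Nlrc5, were higher in 17 of 19 tested (median 0.54), with 1 lower and 1 that did not pass. H2-K1 was at 460.2, 446 and 522 CPM in set 7 and 243, 251 and 245 CPM in set 8 (0.94 ± 0.05, adjusted p = 4.9e-10), and B2m, the shared light chain, at 441, 411 and 465 CPM and 284, 280.4 and 292 CPM (0.62 ± 0.04, adjusted p = 1.52e-08). Tap1, a chain of the peptide transporter, differed by 0.81 ± 0.05 (SE; adjusted p = 4.72e-09). The immunoproteasome subunit Psmb9 had the largest difference of the list (1.79), and the chaperone Calr was the member that was lower (-0.13).

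Promoter sequence gave a description of these groups that the comparison did not use. RefSeq windows of 300 bases around transcription starts (250 before to 50 after, GRCm38.p6; 32851 windows, of which 9851 genes tested here had at least 1) were searched on both strands for 2 copies of TTTC with 2 bases of any kind between them, the paired core of the ISRE. It was present in 3.44% of all windows and for 3.67% of the tested genes. Among the 59 interferon-list genes with a window it was found for 30 (50.8%). These were 27 of the 51 that were higher in set 7, the 1 that was lower and 2 of the 7 that did not pass. Of 16 MHC class I genes 5 had it. A match describes letters and is not a bound site. The stretches below belong to the 5 named genes with the largest differences that hold the motif before their start, with the motif in capitals on either strand, written 5' to 3' along the gene's strand.
Tgtp2 (chr11:49064233-49064322, minus strand): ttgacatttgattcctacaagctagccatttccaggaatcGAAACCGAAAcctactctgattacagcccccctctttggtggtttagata
Trim30a (chr7:104465194-104465269, minus strand): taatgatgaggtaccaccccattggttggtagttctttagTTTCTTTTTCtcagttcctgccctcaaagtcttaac
Oas1g (chr5:120887614-120887665, minus strand): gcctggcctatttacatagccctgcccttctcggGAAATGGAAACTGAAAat
Ifit3 (chr19:34583367-34583456, plus strand): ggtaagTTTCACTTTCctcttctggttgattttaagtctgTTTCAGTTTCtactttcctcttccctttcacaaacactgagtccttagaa
Ifit3b (chr19:34607763-34607852, plus strand): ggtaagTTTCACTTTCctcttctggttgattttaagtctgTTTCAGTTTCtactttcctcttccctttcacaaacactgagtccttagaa

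Oas1g holds overlapping copies of the motif just before its start, which appear as 1 run of capitals. In the Ifit3 and Ifit3b stretches all 90 bases are identical and both carry the motif in 2 places, so these neighbouring genes on chromosome 19 cannot be told apart by this sequence. Both genes were higher in set 7. Iigp1 has no window in the table.

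**Figure D2:**
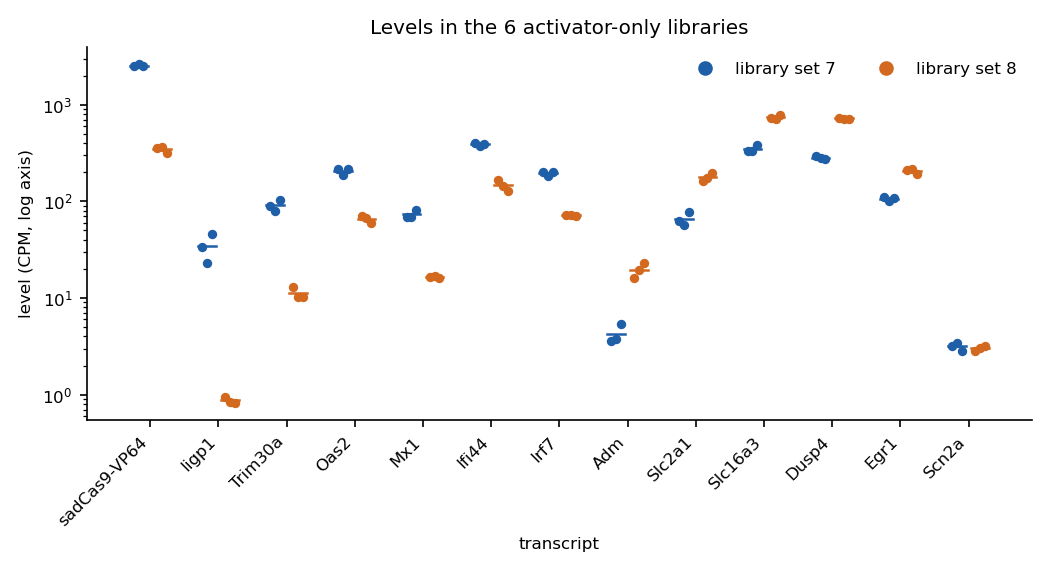
Levels in CPM (log axis) of the activator transcript and 12 host genes in the 6 activator-only libraries, with 1 point per library and a line at each set's mean, set 7 in blue and set 8 in orange (n = 3 each). The sadCas9-VP64 points lie at 2498 to 2646 CPM in set 7 and 318 to 369.8 CPM in set 8, the interferon-stimulated genes from Iigp1 to Irf7 are higher in set 7, Adm to Egr1 are lower, and the Scn2a points overlap.

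NF-kappaB is the other branch downstream of many innate sensors. A mixed list of chemokines, NF-kappaB subunits and feedback genes did not follow the interferon genes as a group. Of 17 tested (23 in the table), 4 were higher and 8 lower in set 7, with a median of -0.28. Il6, the inflammatory cytokine, was at 22.3, 20.9 and 21.5 CPM in set 7 and 48.8, 42.8 and 37.9 CPM in set 8 (-0.98 ± 0.08, adjusted p = 1.19e-07). Nfkbia, the inhibitor that NF-kappaB induces against itself, was at 48.1, 42.2 and 46.3 CPM and 68.97, 64.03 and 70.8 CPM (-0.57 ± 0.06, adjusted p = 1.33e-06), and Nfkb2 differed by -0.58 ± 0.06 (SE; adjusted p = 1.05e-06). Tnfaip2 was lower too (-0.40 ± 0.05, adjusted p = 9.4e-06). Cxcl10, a chemokine that is also a classical interferon target, was among the 4 that were higher (0.41), with Rel (0.42), Nfkbib (0.32) and Nfkb1 (0.24).

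Hypoxia response genes were mostly lower in set 7. Of 28 tested genes 19 were lower and 4 higher (median -0.38). Adm, the vasodilator peptide adrenomedullin, was at 3.56, 3.75 and 5.39 CPM in set 7 and 15.9, 19.5 and 22.98 CPM in set 8 (-2.08 ± 0.16, adjusted p = 3.18e-08). Ankrd37, an ankyrin-repeat gene induced by HIF-1, was at 5.24, 6.74 and 7.62 CPM and 18.98, 26.9 and 24.02 CPM (-1.76 ± 0.14, adjusted p = 6.03e-08). Slc2a1, the glucose transporter GLUT1, was at 62.00, 57.1 and 77.3 CPM and 162, 176 and 198 CPM, a 2.73-fold difference of the means (-1.45 ± 0.09, adjusted p = 2.04e-09). The prolyl hydroxylase Egln1, which marks HIF-1 alpha for destruction, was lower by less (-0.58 ± 0.04, adjusted p = 3.18e-08). In each of these genes the sets did not overlap, which the rule that named Adm and Ankrd37 required. Slc2a1 and Egln1 were taken by their p, and 24.3% of all genes tested were lower in set 7 without overlap. The 4 members that were higher were Hif1a itself (0.22), its partner Arnt (0.40), P4ha2 (0.28) and Pfkfb4 (0.44). Vhl, Car12, Pfkfb3, Cox4i2 and Car9 did not pass (-0.07, -0.05, -0.10, -0.13 and -0.38).

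Glycolysis genes were lower in set 7 in 16 of 18 tested (median -0.41). Slc16a3, the lactate exporter MCT4, was at 329, 335 and 384 CPM in set 7 and 725, 716 and 789 CPM in set 8 (-1.09 ± 0.05, adjusted p = 2.21e-10). Hk2, the inducible hexokinase, was at 86.8, 90.5 and 95.3 CPM and 155, 165 and 156 CPM (-0.80 ± 0.05, adjusted p = 1.53e-09). Pfkl, a phosphofructokinase chain, differed by -0.76 ± 0.05 (SE; adjusted p = 1.31e-08), and Pgk1, which makes ATP in the pathway, by -0.67 ± 0.05 (SE; adjusted p = 2.12e-08). Gapdh and Tpi1, often used as reference transcripts, had differences of -0.17 each. Aldoc, the brain aldolase, was the member that was higher (0.60), and the transporter Slc16a1 did not pass (0.01). Replicate 6 of set 8 was the highest library for 16 of the 19 lower hypoxia genes and 13 of the 16 lower glycolysis genes, against 982 of all 2888 lower genes. Without that library the list medians were -0.34 and -0.35, and 19 to 20 and 13 to 16 genes passed as lower over the 6 fits that left out 1 library.

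The HRE core (ACGTG or GCGTG, both strands) is short and common: 43.8% of all windows held it, as did 67.6% of the tested genes with a window. It was found for 20 of the 22 hypoxia genes with a window, among them all 14 that were lower and all 4 that were higher in set 7. Of the 18 glycolysis genes 15 had it. The stretches of the 4 named genes with the largest falls that hold the core before the start are shown, with the core in capitals on either strand, from the same RefSeq table and build.
Adm (chr7:110627563-110627647, plus strand): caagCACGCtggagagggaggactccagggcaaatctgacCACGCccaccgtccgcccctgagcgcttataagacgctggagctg
Ankrd37 (chr8:45999851-45999896, minus strand): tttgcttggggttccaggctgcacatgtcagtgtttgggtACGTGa
Slc2a1 (chr4:119108669-119108744, plus strand): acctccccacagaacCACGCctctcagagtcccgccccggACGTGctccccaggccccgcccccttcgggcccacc
Slc16a3 (chr11:120949013-120949066, plus strand): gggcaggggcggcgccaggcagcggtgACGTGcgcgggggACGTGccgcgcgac

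**Figure D3:**
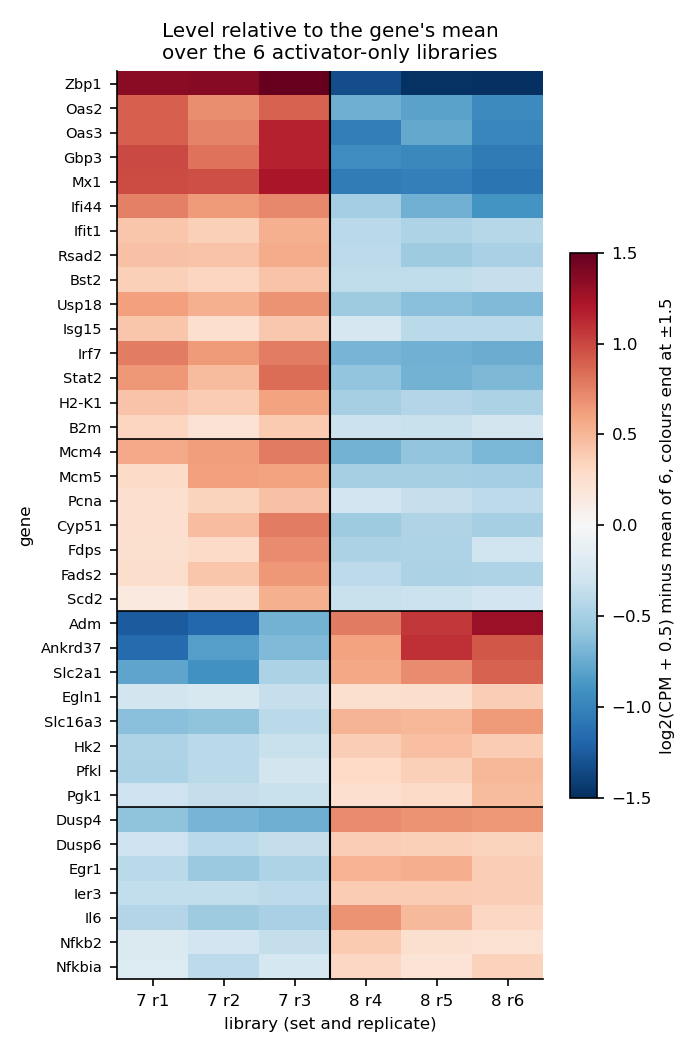
Rows are 37 genes from 4 groups (interferon with MHC class I; DNA replication and lipid synthesis; hypoxia and glycolysis; growth factor and NF-kappaB feedback) and columns are the 6 activator-only libraries, with colour for log2(CPM + 0.5) minus the gene's mean of the 6, colours ending at ±1.5. Red is above and blue below the mean: the upper 2 blocks are red in set 7 and the lower 2 in set 8, with replicate 3 of set 7 the reddest for Cyp51 (260.0 CPM) and replicate 6 of set 8 for Adm (22.98 CPM).

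Genes of DNA replication were all higher in set 7, 20 of 20 with a median of 0.69. Mcm4, a subunit of the replicative helicase, was at 66.99, 69.9 and 77.8 CPM in set 7 and 27.4, 29.9 and 27.9 CPM in set 8 (1.32 ± 0.07, adjusted p = 2.62e-10). Mcm5, of the same helicase, was at 104, 130.1 and 129 CPM and 59.5, 59.5 and 59.03 CPM (1.01 ± 0.07, adjusted p = 8.94e-09). Pcna, the sliding clamp, was at 117, 124 and 134 CPM and 80.8, 77.4 and 74.7 CPM (0.68 ± 0.05, adjusted p = 4.06e-08), and the ribonucleotide reductase chain Rrm1 differed by 0.52 ± 0.04 (SE; adjusted p = 3.81e-08). None of the 20 overlapped between the sets. Mitosis genes were higher in 17 of 20 with a smaller median of 0.26. Ccnb1, the cyclin of mitotic entry, was at 345 ± 14.2 against 239 ± 4.57 CPM (0.53 ± 0.04, adjusted p = 3e-08), and the proliferation marker Mki67 at 264 ± 10.1 against 195 ± 14.9 CPM (0.44 ± 0.05, adjusted p = 3.21e-06). Cdk1 (-0.09), Ube2c (-0.09) and Cenpf (-0.01) did not pass, and without replicate 3 of set 7, or with quantile or median-of-ratios scaling, 2 mitosis genes were lower. Replication-dependent histone mRNAs, which carry no poly(A) tail as a rule, were mostly under the filter (6 of 20 tested). The 1 call on this list was the linker histone H1f0, a replacement variant of resting cells and so not of that class. It was lower in set 7 at 351 ± 18.2 against 566 ± 4.07 CPM (-0.69 ± 0.04, adjusted p = 1.53e-09). The other 5 tested did not pass.

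Sterol synthesis genes were higher in set 7 as well, 18 of 21 tested with none lower and a median of 0.45. Cyp51, lanosterol demethylase, was at 182, 210.5 and 260.0 CPM in set 7 and 105, 111 and 108 CPM in set 8 (0.99 ± 0.08, adjusted p = 1.03e-07). Hsd17b7 was at 17.3, 18.8 and 26.7 CPM and 7.82, 9.32 and 8.47 CPM (1.22 ± 0.14, adjusted p = 2.24e-06), Fdps, farnesyl diphosphate synthase, differed by 0.83 ± 0.09 (SE; adjusted p = 1.29e-06), and Sqle, squalene epoxidase, by 0.45 ± 0.05 (SE; adjusted p = 1.3e-06). Mvd (0.07), Pmvk (0.17) and Hmgcs1 (0.08) did not pass. Replicate 3 of set 7 was the highest library for all 18 genes, and without it the median was 0.39. Fatty acid synthesis genes were higher in 9 of 13 with none lower (median 0.33). Their regulator Srebf1 was at 306, 324 and 367 CPM and 215, 231 and 218 CPM (0.58 ± 0.05, adjusted p = 3.02e-07), and the desaturase Scd2 at 2154 ± 296 against 1386 ± 26.4 CPM (0.63 ± 0.07, adjusted p = 1.26e-06). Without replicate 3 of set 7 the list median was 0.22, with 1 gene lower. The sterol element TCACNCCAC was in 1.24% of all windows (1.39% of tested genes) and in those of 1 of 14 sterol genes and 0 of the 11 that were higher and had a window, so no stretch is shown.

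Immediate early genes and the feedback genes of growth factor signalling were lower in set 7, 14 of 22 tested with 2 higher (median -0.23). Dusp4, a phosphatase that ERK signalling induces against itself, was at 296, 278 and 271 CPM in set 7 and 736, 718 and 710.0 CPM in set 8 (-1.36 ± 0.04, adjusted p = 2.71e-12), and each set was tight. Dusp6, the ERK phosphatase, was at 455, 425 and 439 CPM and 725, 723 and 708 CPM (-0.71 ± 0.04, adjusted p = 5.05e-10). Egr1, a zinc-finger transcription factor, was at 112, 101 and 108 CPM and 213, 217 and 192 CPM (-0.95 ± 0.05, adjusted p = 8.33e-10), and Ier3 differed by -0.75 ± 0.06 (SE; adjusted p = 7.68e-08). Spry1, a further feedback inhibitor of receptor tyrosine kinases among the 12 lower genes with the largest difference, was at 13.1, 12.9 and 11.4 CPM and 39.4, 35.7 and 39.1 CPM (-1.57 ± 0.08, adjusted p = 5.61e-10). Fos (0.01) and Dusp1 (0.07) did not pass. Myc (0.13) and Arc (0.25) were the members that were higher, and 0 to 1 were higher in each fit that left out 1 library.

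Stress lists had medians between -0.03 and 0.20. The unfolded protein response of the endoplasmic reticulum gave 5 higher and 3 lower of 19 (median 0.05), with Herpud1, a degradation factor, the furthest up (0.36 ± 0.06, adjusted p = 0.000138). Without replicate 3 of set 7, 8 were higher, without replicate 1 of set 7, 6 were lower, and without replicate 2 of set 7 or replicate 4 of set 8, 1 was lower. Heat shock proteins gave 4 higher and 3 lower of 13 (median 0.01), Dnajb1 being lower (-0.56 ± 0.05, adjusted p = 4.05e-07) and Hspa9 higher (0.19 ± 0.04, adjusted p = 0.000615). Hspa8 (-0.29) lost its call with quantile scaling. The integrated stress response and amino acid supply gave 11 higher and 3 lower of 21 (median 0.12). Slc7a11, the cystine importer, was at 371, 357 and 350.2 CPM in set 7 and 273, 262 and 249 CPM in set 8 (0.46 ± 0.04, adjusted p = 1.98e-07), and the transcription factor Atf5 was lower (-0.51 ± 0.04, adjusted p = 1.2e-07). Of 14 p53 targets 3 were higher and 4 lower (median -0.03). Zmat3 was higher, at 167, 173 and 171 CPM and 86.3, 81.8 and 90.7 CPM (0.98 ± 0.05, adjusted p = 1.57e-10), and Cdkn1a, the p21 gene, did not pass (0.08). Oxidative stress genes were higher in 10 of 16 and lower in 3 (median 0.20), with Hmox1, heme oxygenase, at 143 ± 7.94 against 94.6 ± 4.94 CPM (0.59 ± 0.05, adjusted p = 1.39e-07) and Srxn1 lower (-0.71 ± 0.10, adjusted p = 2.19e-05).

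All 28 cytosolic ribosomal protein mRNAs tested were lower in set 7, each by a little (median -0.29, from -0.53 to -0.15). Rpl5 was at 1781, 1746 and 1675 CPM in set 7 and 2354, 2274 and 2374 CPM in set 8 (-0.43 ± 0.04, adjusted p = 3.18e-07), and Rps14 at 579 ± 16.1 against 754 ± 21.2 CPM (-0.38 ± 0.04, adjusted p = 6.45e-07). With quantile scaling their median was -0.16, with 22 lower and 2 higher. Nuclear genes of the respiratory chain were higher in 12 of 22 with none lower (median 0.12), for example Sdhb (0.33 ± 0.04, adjusted p = 6.66e-06). Of 13 mitochondrially encoded mRNAs 1 was higher and 3 lower (median -0.07). The 3 were mt-Atp6 (-0.41), mt-Co2 (-0.44) and mt-Co3 (-0.25), which lost their calls with robust eBayes, while without replicate 1 of set 7, 7 were lower, and mt-Nd1 (0.21) lost its own without replicate 5 of set 8. Lysosome and autophagy genes split, with 10 higher and 7 lower of 19: the cathepsin Ctsb was higher (0.32 ± 0.04, adjusted p = 3.49e-06) and the autophagy gene Wipi1 lower (-0.54 ± 0.04, adjusted p = 1.03e-08).

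Matrix, TGF-beta and Hippo pathway genes were higher in 14 of 21 and lower in 3 (median 0.22). Id2, a helix-loop-helix inhibitor of differentiation and a target of BMP signalling, was at 12.7, 14.9 and 16.9 CPM in set 7 and 3.39, 2.69 and 3.48 CPM in set 8 (2.05 ± 0.15, adjusted p = 1.67e-08). Its relative Id3 was at 42.5, 41.7 and 52.8 CPM and 15.4, 16.8 and 18.2 CPM (1.41 ± 0.09, adjusted p = 5.68e-09). Sparc, a secreted matrix protein, was at 1011 ± 59.6 against 563 ± 24.3 CPM (0.84 ± 0.05, adjusted p = 7.03e-10). Among 16 neuroblastoma identity genes 4 were higher and 7 lower (median -0.05). Insm1, a zinc-finger factor of neuroendocrine cells, was higher at 121, 130.3 and 126 CPM against 62.9, 63.8 and 58.02 CPM (1.02 ± 0.05, adjusted p = 2.47e-10). Mycn was lower at 12.7, 14.4 and 14.2 CPM against 27.6, 32.2 and 32.2 CPM (-1.13 ± 0.09, adjusted p = 5.47e-08), as was the granule protein gene Chgb (-0.82 ± 0.06, adjusted p = 2.3e-08). Neuronal differentiation genes gave 3 higher and 6 lower of 14: Tubb3 (0.61 ± 0.04, adjusted p = 4.72e-09) and Ncam1 (0.68) were higher, and Mapt, the tau gene (-0.63 ± 0.06, adjusted p = 3.76e-07), and Elavl3 (-0.78) were lower.

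Scn2a, the gene the study set out to activate, was low in both sets when no guide was present. It was at 3.18, 3.46 and 2.84 CPM in set 7 and 2.86, 3.05 and 3.16 CPM in set 8, so the libraries overlapped. The difference was 0.05 ± 0.17 (SE; adjusted p = 0.829), and its sign turned without replicate 2 of set 7 (-0.01).

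Several of the largest differences lay outside the lists. Lrrc17, a secreted leucine-rich repeat protein, was at 12.9, 15.3 and 13.6 CPM in set 7 and 1.67, 2.99 and 1.96 CPM in set 8 (2.44 ± 0.17, adjusted p = 1.49e-08). In the other direction, Kbtbd11, a BTB-kelch protein gene, was at 8.98, 8.08 and 9.56 CPM and 49.3, 50.1 and 60.2 CPM (-2.52 ± 0.09, adjusted p = 1.16e-11), the largest such difference among genes with a mean of at least 5 CPM. Deptor, an inhibitor of the growth kinase mTOR, was at 28.3, 27.4 and 24.1 CPM and 108, 108 and 102 CPM (-1.98 ± 0.06, adjusted p = 3.79e-12). St3gal1, a sialyltransferase, was at 1.43, 1.99 and 1.88 CPM and 8.25, 11.7 and 10.6 CPM (-2.23 ± 0.18, adjusted p = 4.32e-08). Galnt15 (-1.85), Acox2 (-1.73), Cish, a feedback inhibitor of cytokine receptors (-1.70), Rimbp2 (-1.62), Car6 (-1.56) and the integrin chain Itga1 (-1.56) were also lower in set 7. For each of these genes the sets did not overlap, which the rule that chose them required.

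**Figure D4:**
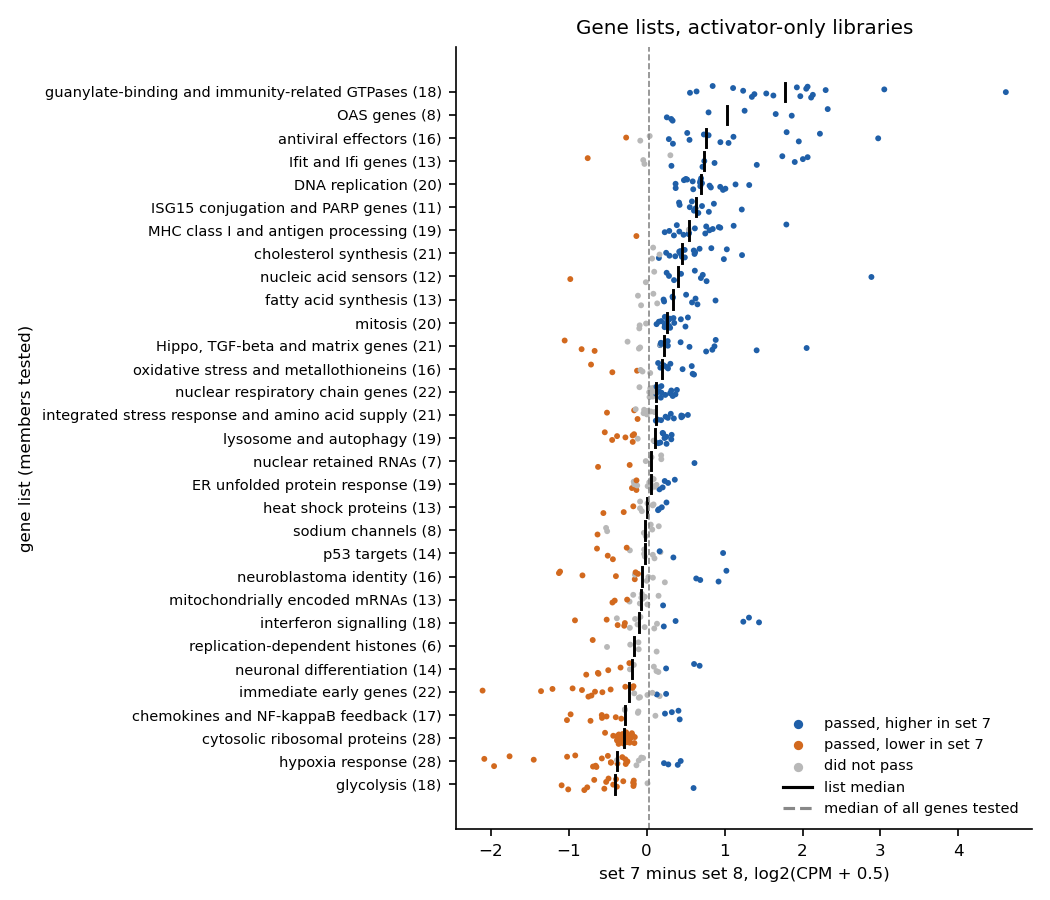
Each dot is a tested member of a gene list, placed by set 7 minus set 8 in log2(CPM + 0.5) (x axis), with lists on the y axis ordered by median and the number tested in brackets. Blue passed as higher, orange as lower and grey did not pass; black bars are list medians, from 1.78 for the GTPases to -0.41 for glycolysis, and the dashed line is the median of all genes tested (0.03).

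The same set contrast in the guide-treated libraries, which share no library with the activator-only libraries, passed for more genes. In a fit of all 4 groups 7836 genes passed there (54.6%), against 6588 for the activator-only libraries in the same fit. Of the genes that passed in both, 4471 had the same direction, which is 67.9% of the activator-only and 57.1% of the guide-treated calls, and 278 were opposed. Genes are not independent replicates; across them, as a description, the differences had a Pearson r of 0.649 and a Spearman rho of 0.635. A test of the difference between the set differences called 3126 genes (21.8%), 1360 above 0 and 1766 below, so for those genes the set difference was not the same in the 2 treatments.

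The 78 interferon-stimulated genes had a median set difference of 0.78 in activator-only and 0.53 in guide-treated libraries. Of all 14344 genes tested, the test of the difference itself called 1360 above 0 and 1766 below, and list counts are read against those. It called 7 of 8 members of the oligoadenylate synthetase and RNase L list above 0, with 0 below. Of the GTPases 10 of 18 and of the ISG15 genes 7 of 11 were above 0, with 1 and 0 below. For sensors the test called 4 above and 2 below of 12, for Ifit and Ifi genes 6 and 1 of 13, and for antiviral effectors 7 and 1 of 16. Oas2 differed by 1.66 and 0.22 (limma adjusted p of the difference 2.41e-08), Irf7 by 1.44 and 0.30 (5.17e-09) and Iigp1 by 4.61 and 2.87 (7.45e-05). MHC class I medians were 0.54 and 0.56. In the hypoxia and glycolysis lists the medians were -0.38 and -0.41 without and -0.23 and -0.23 with the guide. In the difference 8 of 28 and 7 of 18 members were called below 0, with 3 and 0 above. The immediate early list had a median of -0.23 without and 0.02 with the guide, where 5 members were higher and 7 lower. In the difference 13 of its 22 members were called below 0 and 1 above. Its member Egr1, lower in set 7 without the guide, gave 0.04 with it (adjusted p of the difference 4.99e-08).

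Replication and sterol genes went further with the guide. Their medians were 0.69 and 0.45 without and 1.24 and 0.97 with it, and 16 of 20 and 13 of 21 members were called below 0 in the difference, with none above. The integrated stress response list changed sign, with a median of 0.12 without and -0.41 with the guide, and all 21 members were called above 0 in the difference. Slc7a11 was 0.46 and -0.37 (adjusted p of the difference 1.46e-07), and Psph, a serine synthesis enzyme, 0.53 and -0.08 (1.5e-06). Scn2a gave 0.05 and 0.12, and the difference did not pass (0.87).

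**Figure D5:**
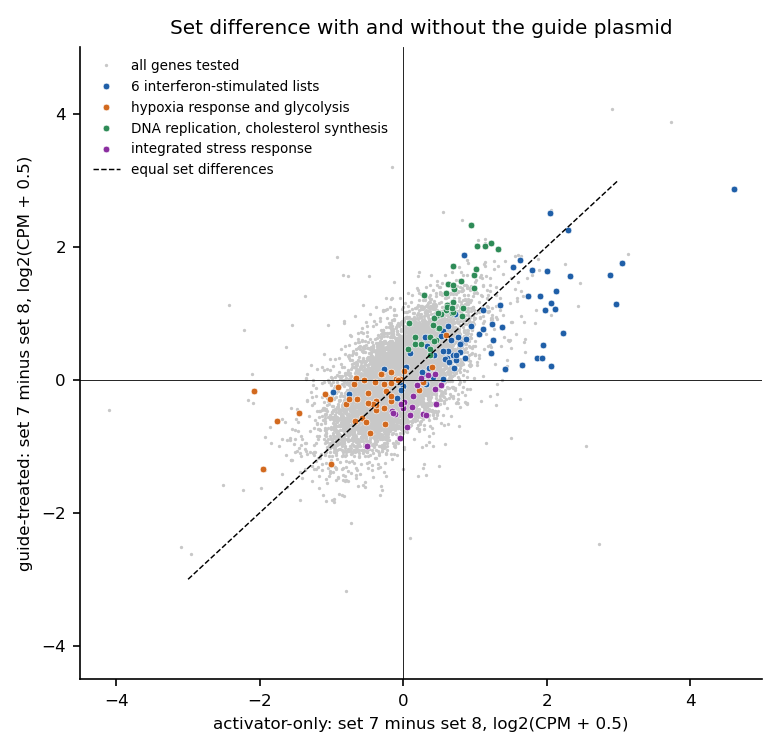
Each dot is a gene, with its set difference (set 7 minus set 8, log2(CPM + 0.5)) in the activator-only libraries on the x axis and in the guide-treated libraries on the y axis, over 14344 genes. Dots on the dashed line have equal set differences: interferon-stimulated genes (blue) lie mostly below it, replication and sterol genes (green) above it, and the 21 integrated stress response genes (purple) lie below it with medians of 0.12 and -0.41.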

How the data were processed

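PolyA RNA sequencing was made from 12 Neuro2a libraries and 9 samples of sorted mouse cortex neurons, and the 6 activator-only Neuro2a libraries were the main material. Per the labels' protocols RNA came from a column kit and libraries from polyA enrichment. Listed in the submitters' processing notes are mm39 and GRCm39, R 4.4, DESeq2 1.44, featureCounts and STAR 2.7.8a, with no role or order, and how the CPM were made, the strand setting and the annotation release are not given in the sources used here. The authors' deposited Neuro2a table holds CPM for 31553 features, each library summing to 1e+06. The most frequent value above 0 was taken as 1 read, which gave the estimated depths, and 72.0 to 73.2% of values lay within 0.01 of whole reads, so no count model was used.

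The test covered genes that reached 0.5 CPM in 3 or more of the 6 libraries (14344, without the 2 transgene features), with limma 3.58.1 in R 4.3.3 (lmFit, eBayes with trend) on log2(CPM + 0.5), no covariate, and Benjamini-Hochberg adjustment over all genes at 0.05. A fit of all 4 Neuro2a groups gave the guide-treated contrast and the interaction. The residual and prior degrees of freedom were 4 and 12.2. Transgenes were compared by exact two-sided permutation of the CPM means. The fit was tested on simulated data. Floors for values of 0 are 3 reads per library and cover counting error only. Alternatives were pseudocounts of 0.1 and 1, no filter or 2 CPM, median-of-ratios and quantile scaling, totals without transgenes, the 12-library fit, robust eBayes, limma-voom, library quality weights, leaving out each library and, for the interaction, a replicate block.

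The members and the 36 gene lists were chosen with earlier results of these data known. The rule named the 12 largest differences per direction among genes averaging 5 CPM or more whose sets do not overlap and whose symbol is no clone name, then from each list up to 4 genes that passed, taken by p (the 2 most abundant where none passed), and Scn2a. Some genes that the rule names are not reported here. Members named beyond that, as exceptions or examples, were chosen after their values were seen. Of the tested genes 13594 (94.8%) matched annotation for length and GC. Promoter windows are from RefSeq (GRCm38.p6), matched by symbol, and no other coordinates are given because the notes name another build. Python 3.11.15 with numpy 2.4.6, pandas 2.3.3, scipy 1.17.1 and matplotlib 3.10.9 made the tables and plots. The mouse libraries and the deposited comparison tables were not used here.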

Additional observations from a re-analysis of the deposited data

Results flagged for a closer look

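For 3126 genes (21.8% of those tested) the set difference itself differed between activator-only and guide-treated libraries (limma interaction, adjusted over all genes). Of the 134 named genes 86 are among them. The rule chose these mostly by their activator-only difference or its p, which also enter the interaction. Their count is therefore not read against the share over all genes. The values below are the activator-only difference minus the guide-treated difference on the log2(CPM + 0.5) scale, with 3 libraries in each of 4 groups. Interferon-stimulated genes and their sensors had 1.84 for Trim30a, 1.74 for Iigp1, 1.54 for Oas3, 1.52 for Phf11d, 1.44 for Oas2, 1.30 for Zbp1, 1.25 for Ifi44, 1.05 for Mx1, 0.92 for Gbp3, 0.91 for Ifit3, 0.82 for Usp18, 0.76 for Oas1g, 0.65 for Oas1a, 0.54 for Parp12, 0.54 for Isg15, 0.41 for Igtp, 0.37 for Bst2, 0.26 for Ifit1 and 0.19 for Rigi above 0 and, below it, -0.80 for Sting1 and -0.53 for Ifi27. Interferon signalling and MHC class I genes had 1.15 for Irf7, 0.40 for Stat2, 0.32 for H2-K1, 0.30 for H2-D1 and 0.20 for B2m above 0 and, below it, -0.23 for Irf2. NF-kappaB and immediate early genes had 0.28 for Tnfaip2 above 0 and, below it, -0.99 for Egr1, -0.59 for Il6, -0.44 for Nfkbia, -0.43 for Ier3, -0.41 for Dusp4, -0.33 for Nfkb2 and -0.24 for Dusp6. Hypoxia and glycolysis genes had -1.91 for Adm, -1.14 for Ankrd37, -0.95 for Slc2a1, -0.88 for Slc16a3, -0.48 for Pfkl and -0.43 for Hk2, each below 0. Sterol and fatty acid genes had -0.84 for Hsd17b7, -0.51 for Srebf1, -0.40 for Scd2 and -0.38 for Cyp51, each below 0.

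Stress genes had 0.96 for Herpud1, 0.95 for Zmat3, 0.83 for Slc7a11, 0.61 for Psph, 0.49 for Atf5, 0.43 for Hspa9, 0.37 for Hmox1 and 0.36 for Sesn2 above 0 and, below it, -0.56 for Srxn1, -0.50 for Phlda3 and -0.28 for Dnajb1. Replication and mitosis genes had 0.26 for Ccnb1 above 0 and, below it, -0.65 for Mcm4, -0.65 for Mcm5, -0.47 for Rrm1 and -0.32 for Pcna. Mitochondrial and ribosomal protein mRNAs had 0.20 for Rpl5 above 0 and, below it, -0.79 for mt-Co2, -0.43 for mt-Atp6 and -0.40 for mt-Nd1. Matrix, neuroblastoma and neuronal genes had 0.76 for Insm1, 0.55 for Igfbp5, 0.38 for Mapt and 0.31 for Tubb3 above 0 and, below it, -0.69 for Mycn. Lysosomal genes, nuclear RNAs and markers of other cells had 0.99 for Pdgfrb and 0.20 for Ctsb above 0 and, below it, -1.58 for Col1a2, -0.76 for Pecam1 and -0.71 for Neat1. Further genes with the largest differences had 1.86 for Gbp10, 1.34 for Lrrc17, 1.30 for Tgtp2 and 0.80 for Gbp9 above 0 and, below it, -1.14 for Galnt15, -0.94 for Kbtbd11, -0.80 for Cish, -0.74 for Acox2, -0.71 for Rimbp2, -0.70 for Spry1 and -0.36 for Deptor.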

How the results depend on the processing

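Over 11 other settings the genes that passed numbered 5813 to 6830 (6632 as reported), with 3234 to 3865 higher and 2495 to 3277 lower in set 7. Leaving out each library in turn gave 5697 to 6194 genes, 3231 to 3500 higher and 2424 to 2694 lower. The interaction called 3126 genes, 2390 to 3262 without 1 library. Its fit with a replicate block called 2908. Same-numbered libraries of the 2 treatments had correlations of -0.0713 to 0.0301 after group means were removed. Whether they share a day or culture was not tested. No paired analysis of set 7 against set 8 was possible because the sets share no replicate number. The sadCas9-VP64 log2 ratio of 2.87 ran from 2.81 to 2.91 without 1 library and from 2.75 to 2.84 with other scales.

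Of 2276 recomputed values for 134 named genes, 2247 kept their direction and side of the threshold, 26 (8 genes: Meg3, mt-Co3, Pecam1, Pdgfrb, Hspa8, mt-Atp6, mt-Co2 and mt-Nd1) lost the call, 1 gained it (Mbp, without replicate 2 of set 7) and 2 turned. The last were Hsp90b1 with quantile scaling (0.0204) and, without replicate 2 of set 7, Scn2a, which ran from -0.00591 to 0.116 when 1 library was left out. Of 578 list medians 26 moved by more than 0.1. Among lists with a median more than 0.1 from 0, 3 values turned: histones (0.00044) and astrocyte and oligodendrocyte markers (0.0056), both without a filter, and endothelial and epithelial markers, from -0.232 to 0.151 when 1 library was left out (turned without replicate 3 of set 7). Of the lists closer to 0, 5 (heat shock, p53 targets, sodium channels, nuclear retained RNAs and fibroblast markers) changed sign in 21 recomputed medians, so those medians have no direction. The cause was not tested. With 3 libraries a set and 15.8 to 20.97 M reads, genes under 0.5 CPM rest on few reads. Those that reached 0.5 CPM in fewer than 3 of the 6 libraries were left out. A gene under 0.5 CPM throughout 1 set stayed in if all 3 libraries of the other set reached that level.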

Other observations

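Some large differences lay under the mean level that the naming rule asks for, and these genes were chosen after their values were seen. Ly6e, an interferon-stimulated surface protein, was at 5.05, 5.63 and 10.8 CPM in set 7 and 0.0954, 0.0597 and 0 CPM in set 8, where it was at or under 3 reads. In the guide-treated libraries it was at 80.2 ± 4.19 and 5.43 ± 2.50 CPM (n = 3 each). Ndrg1, a hypoxia-induced gene, was at 1.44, 1.29 and 1.88 CPM in set 7 and 7.30, 6.99 and 7.77 CPM in set 8 (-1.96 ± 0.17, SE; limma adjusted p = 1.69e-07). Egr3 was at 0.249, 0.527 and 0.605 CPM and 3.34, 3.28 and 4.17 CPM (-2.11 ± 0.23; adjusted p = 1.57e-06).

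Rps2-ps13, a pseudogene of ribosomal protein gene Rps2, was listed at 0 in all 3 set 7 libraries and at 8.62, 8.45 and 7.18 CPM in set 8. In guide-treated libraries it was at 2.73 ± 1.32 and 4.19 ± 2.32 CPM. Its parent Rps2 was at 1543 ± 40.97 against 1714 ± 12.9 CPM in the activator-only sets. How reads with several alignments were counted is not given in the sources used here, so the split between pseudogene and parent is uncertain. The same holds for Rn7s1 and Rn7s2, copies of the signal recognition particle RNA gene. Rn7s1 was at 16.5, 7.68 and 13.3 CPM in set 7 and 0, 25.6 and 0 CPM in set 8, and Rn7s2 at 0, 8.38 and 0 CPM and 25.99, 0 and 25.7 CPM. In 5 of the 6 libraries 1 of the pair was listed at 0.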
